A study of Mus musculus with 3 samples.

Results

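The genes described here encode subunits of the mitochondrial respiratory chain: 44 listed genes of complexes I to IV and cytochrome c, of the 21153 gene symbols on the array. Every probe whose RefSeq accession belonged to a listed symbol was taken, which gave 56 probes. Of the 44 genes, 26 belong to complex I, 4 to complex II, 6 to complex III and 7 to complex IV, and cytochrome c is 1 gene. The list held no gene of complex V, so the 18 genes of ATP synthase and its inhibitor came from a separate list. RNA was compared between embryoid bodies from Hopx-/- mouse embryonic stem cells given 12.5 µM XAV939 and embryoid bodies from Hopx+/- cells, for which no inhibitor is stated, at day 8 of a cardiac differentiation. Embryoid bodies are aggregates of differentiating stem cells, and XAV939 is a tankyrase inhibitor that lowers Wnt and β-catenin signalling. The stem cells came from blastocysts and were kept on feeder layers of mouse embryonic fibroblasts. Each of 3 two-colour Agilent arrays set 1 RNA directly against the other, and the labels call the arrays biological replicates. The sources do not say how many stem cell lines stand behind them. Genotype and inhibitor differ together between the groups and cannot be told apart.

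Complexes I, III and IV pump protons across the inner mitochondrial membrane as they pass electrons from NADH to oxygen, complex II feeds in electrons from succinate, and complex V uses the proton gradient to make ATP. Cytochrome c carries electrons from complex III to complex IV and, once released from mitochondria, takes part in apoptosis. The heart depends heavily on this pathway, and mitochondria gain mass and cristae as cardiomyocytes mature. Pluripotent cells rely more on glycolysis.

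All values are log2 ratios of Hopx-/- plus XAV939 over Hopx+/-, after loess normalization within each array, so a value of 1 is a 2-fold difference. The labels put the Hopx-/- RNA in Cy5 on every array. The Cy5-over-Cy3 ratios of replicate 3 nevertheless ran against those of replicates 1 and 2 over all probes (r = -0.79 and -0.89, against 0.82 between replicates 1 and 2). The authors' processed column for replicate 3 also ran against its Cy5-over-Cy3 ratio (r = -0.94), so replicate 3 was turned. The direction is therefore likely and not settled from the labels, and with it reversed every sign below would turn. In the direction used, Hopx was 6.54-fold lower in Hopx-/- plus XAV939 (log2 ratio -2.65, -2.75 and -2.73 on the 3 arrays, mean -2.71 ± 0.05, SD, n = 3), and a second Hopx probe gave -2.25 ± 0.15. Reversed, Hopx RNA would be higher by the same factor in the cells labelled Hopx-/-, far beyond its spread. The files do not say whether these probes lie in the deleted part of the gene. Replicate 3 is then the sole array of its dye orientation, so its difference from the others and a dye effect cannot be told apart. Between 56.6% and 68.0% of probes per channel were well above background, and the number of arrays limits the precision. Of the lists of cell type markers, 15 of 15 cardiomyocyte genes and 10 of 10 endoderm genes were lower, with medians of -1.75 and -4.12, and 10 of 10 pluripotent cell genes were higher, with a median of 1.65. Of 8 fibroblast genes 1 was higher and 5 were lower, of 6 endothelial genes 4 were higher and 1 was lower, and of 6 blood genes 3 were higher and 0 lower. Over all genes tested, 31.5% were higher and 33.0% lower by the same test, given below. In bulk RNA of this kind, fewer cells of a type and less RNA per cell cannot be told apart.

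The 44 listed respiratory chain subunits lay on both sides of 0, and most differences were small. Of the 44 genes, 13 were higher and 6 lower in Hopx-/- plus XAV939, and 25 did not pass (limma, Benjamini-Hochberg adjusted p under 0.05, adjusted over all genes tested). That is 43.2% of the genes called, where 64.5% of all 14705 genes tested were called, 31.5% higher and 33.0% lower. With the direction reversed the 13 would be lower and the 6 higher. Their median log2 ratio was 0.08, with 0.00, 0.16 and 0.10 on replicates 1, 2 and 3, against -0.01 over all genes tested. The median size of a difference, whatever its sign, was 0.22 for the 44 genes and 0.44 for all genes. Of the 44 only Cycs differed by 2-fold or more, as did 2549 of all genes tested. Among 22 tested subunits of complexes I, III and IV outside the list, given below, 4 did so. After loess, the 25 genes that did not pass all had a 95% interval inside 1.5-fold in either direction. The widest end lay at a log2 ratio of 0.52. This was not worked out under median centring, described below, where means and spread were larger. Sdhb, which did not pass, stood there at 0.57 ± 0.71, so the bound is not to be carried over. All 44 genes were well above background in both groups on all 3 arrays, and 1, Cox5a, had a saturated spot on 1 array. No gene was taken out by the filter on dim probes.

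The 44 genes kept 1 sign on all 3 arrays in 27 cases (61.4%), against 77.9% of all genes tested. In 9 cases (20.5%, against 13.0% of all genes) replicate 3 lay on the other side of 0 from both other arrays. These counts are after loess. Under median centring, described below, Ndufa4, Cox6b1 and Cox6c of these cases kept 1 sign on all 3 arrays, while others such as Ndufa2, Ndufs7 and Sdhd did not. The summed normalized signal of the 15 cardiomyocyte markers ranged from 68339 to 89802 in Hopx-/- plus XAV939 and from 260665 to 292483 in Hopx+/-. For the 10 pluripotent cell markers the range was 120642 to 151507 against 28174 to 34776. Such sums weigh the brightest genes most, and the share of all genes with separate ranges was not worked out. No gene of these marker lists was below background on all arrays of either group. The part of these cell type markers in the values of the respiratory subunits was not tested.

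**Figure D1:**
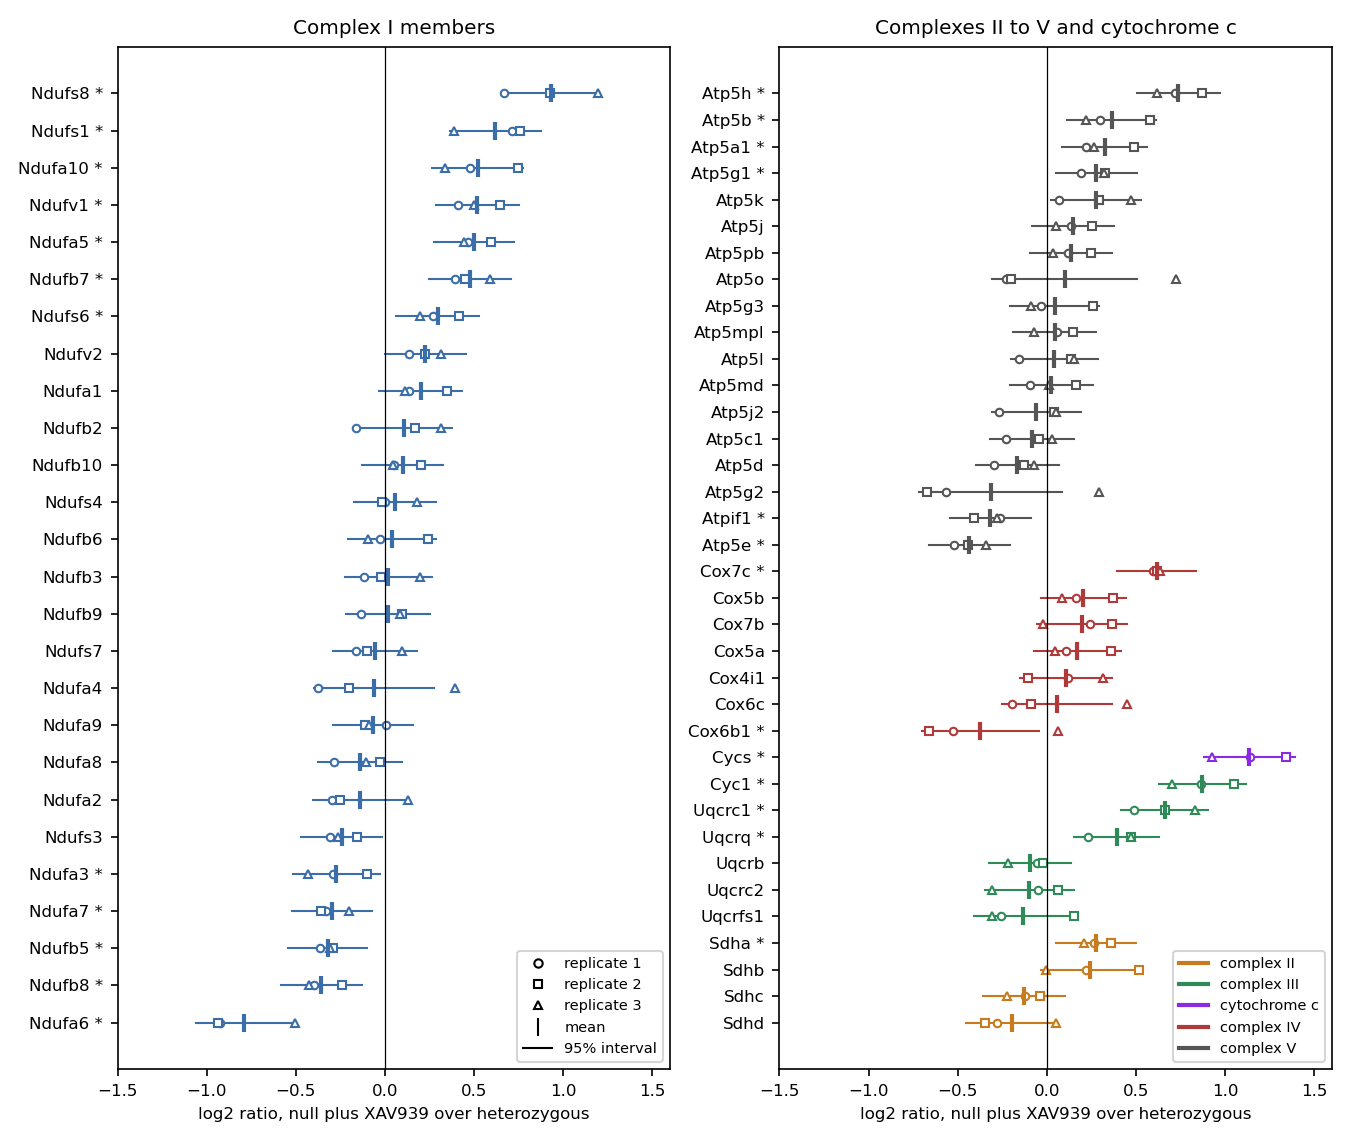
Log2 ratios (Hopx-/- plus XAV939 over Hopx+/-) of the 44 listed respiratory chain genes and 18 complex V genes on each of 3 arrays, with the mean as a vertical bar and the moderated 95% interval as a line; an asterisk marks a gene that passed at an adjusted p under 0.05. Intervals are not adjusted for the number of genes, so those of Ndufs3 and Atp5k leave out 0 although neither gene passed, and the means run from -0.79 for Ndufa6 to 1.14 for Cycs.

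Promoter windows are shown for 4 genes at the ends of the range or holding one of the searched motifs, since nuclear respiratory genes are known to be controlled in part by NRF1, ETS family factors such as GABP, and YY1. RefSeq windows of 250 bases before to 50 bases after the start site (GRCm38.p6) were given for 34 of the 44 genes. The searched letters, on both strands, were GCGCANGCG for NRF1, CCGGAAG for ETS factors and AAGATGGC for YY1, none of which contains another. Each sequence runs 5′ to 3′ along the gene's strand, and capitals mark the match.
Cycs, log2 ratio 1.14, chr6:50566520-50566819, minus strand, NRF1 letters starting at -61:
Cycs: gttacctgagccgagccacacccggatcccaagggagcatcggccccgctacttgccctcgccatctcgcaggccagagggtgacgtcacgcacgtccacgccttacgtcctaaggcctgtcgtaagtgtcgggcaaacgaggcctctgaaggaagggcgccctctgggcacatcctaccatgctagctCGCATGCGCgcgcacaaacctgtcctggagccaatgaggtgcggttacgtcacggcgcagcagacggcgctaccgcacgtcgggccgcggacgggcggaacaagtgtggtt
Ndufs8, log2 ratio 0.93, chr19:3912725-3913024, minus strand, ETS letters starting at 16:
Ndufs8: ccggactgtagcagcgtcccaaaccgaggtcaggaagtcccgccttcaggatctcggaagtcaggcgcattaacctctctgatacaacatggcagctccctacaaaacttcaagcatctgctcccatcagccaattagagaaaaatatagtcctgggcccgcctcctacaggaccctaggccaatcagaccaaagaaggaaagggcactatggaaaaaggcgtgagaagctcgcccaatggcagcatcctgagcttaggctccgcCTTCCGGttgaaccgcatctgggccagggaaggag
Ndufa6, log2 ratio -0.79, chr15:82354242-82354541, minus strand, NRF1 letters starting at 25:
Ndufa6: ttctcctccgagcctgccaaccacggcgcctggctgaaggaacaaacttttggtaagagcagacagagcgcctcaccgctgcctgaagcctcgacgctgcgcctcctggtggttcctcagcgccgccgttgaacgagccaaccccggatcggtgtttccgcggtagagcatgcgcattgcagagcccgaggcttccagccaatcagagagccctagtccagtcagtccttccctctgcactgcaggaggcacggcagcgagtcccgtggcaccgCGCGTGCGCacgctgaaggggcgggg
Ndufb8, log2 ratio -0.36, chr19:44555393-44555692, minus strand, YY1 letters starting at 39:
Ndufb8: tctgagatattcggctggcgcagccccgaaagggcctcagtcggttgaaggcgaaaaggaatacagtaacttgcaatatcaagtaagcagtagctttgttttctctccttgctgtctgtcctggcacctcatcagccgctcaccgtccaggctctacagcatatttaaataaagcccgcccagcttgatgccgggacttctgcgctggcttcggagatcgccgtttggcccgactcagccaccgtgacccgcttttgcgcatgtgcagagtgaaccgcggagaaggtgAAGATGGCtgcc
Positions count from the annotated start site, with 1 as the first transcribed base.

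The NRF1 letters were found in 9 of the 34 genes (26.5%), against 7.03% of the 27025 genes with a window. The ETS letters were found in 7 (20.6%, against 9.93%) and the YY1 letters in 6 (17.6%, against 3.19%), and 14 of the 34 genes held none of the 3. Among the 9 genes with NRF1 letters 5 were higher, 1 was lower and 3 did not pass, so Cycs and Ndufa6, at the opposite ends of the range, both carried them. Of the 7 with ETS letters 2 were higher, 1 was lower and 4 did not pass. Of the 6 with YY1 letters 1 was higher, 2 were lower and 3 did not pass. Of all genes tested 31.5% were higher and 33.0% lower, 64.5% called in all, and of the 44 genes 13 were higher and 6 lower. These are matches of letters in a window, and their relation to the direction of a gene was not tested.

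Complex I, the NADH dehydrogenase that takes electrons from NADH and is the largest complex of the chain, had genes on both sides of 0. Of its 26 genes, 7 were higher, 5 were lower and 14 did not pass. That is 46.2% called, against 64.5% of all genes tested. The median was 0.03 (-0.07, 0.04 and 0.12 on the 3 arrays). Ndufs8, which carries iron-sulphur clusters, gave 0.67, 0.92 and 1.19 on replicates 1, 2 and 3. Its mean was 0.93 ± 0.26 (SD, n = 3; 1.90-fold; adjusted p 0.000169), the highest of the complex and above 0 on every array. Ndufs1, the large subunit of the NADH-oxidizing arm with several iron-sulphur clusters, gave 0.71, 0.76 and 0.39 (mean 0.62 ± 0.20, adjusted p 0.00115). Ndufv1, which holds the flavin and the NADH site, gave 0.41, 0.64 and 0.50 (mean 0.52 ± 0.12, adjusted p 0.00193). Ndufa10, an accessory subunit of the membrane arm, gave 0.48, 0.75 and 0.34 (mean 0.52 ± 0.21, adjusted p 0.00325). All 4 of these genes lay above 0 on every array. The other 3 that were higher, Ndufa5, Ndufb7 and Ndufs6, had means from 0.30 to 0.50.

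Ndufa6, an accessory subunit of the LYR motif family that binds the acyl carrier protein, was the lowest gene of the list. It gave -0.93, -0.94 and -0.50 on the 3 arrays (mean -0.79 ± 0.25, 1.73-fold lower, adjusted p 0.000399). It was the farthest below 0 by a wide margin, since the next gene of complex I, the accessory subunit Ndufb8 of the membrane arm, gave -0.40, -0.24 and -0.43 (mean -0.36 ± 0.10, adjusted p 0.0126). Ndufb5, another membrane arm subunit, gave -0.37, -0.29 and -0.31 (mean -0.32 ± 0.04, adjusted p 0.0175). A dimmer Ndufb5 probe gave -0.23, -0.19 and 0.38 (mean -0.01 ± 0.34), and the call was lost when probes were averaged. Ndufa7, an accessory subunit of the peripheral arm, gave -0.33, -0.36 and -0.20 (mean -0.30 ± 0.08, adjusted p 0.027). By their brightest probes these 4 genes lay below 0 on every array. Ndufa3 was also lower at -0.27, with the adjusted p nearest to the threshold among the called genes (0.0498).

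The 14 genes of complex I that did not pass were Ndufa1, Ndufa2, Ndufa4, Ndufa8, Ndufa9, Ndufb2, Ndufb3, Ndufb6, Ndufb9, Ndufb10, Ndufs3, Ndufs4, Ndufs7 and Ndufv2. Their means ranged from -0.24 to 0.23. Ndufs3 came nearest to the threshold at -0.24 (adjusted p 0.0571). Ndufa4, now regarded as a subunit of complex IV despite its name, gave -0.38, -0.20 and 0.39, with replicate 3 on the other side of 0. Among the listed core subunits, those shared with the bacterial enzyme (Ndufs1, Ndufs3, Ndufs7, Ndufs8, Ndufv1 and Ndufv2), 3 were higher and 0 lower, with a median of 0.37. The 10 Ndufa genes had 2 higher and 3 lower with a median of -0.10, and the 8 Ndufb genes had 1 higher and 2 lower with a median of 0.03. The shares called were 50%, 50% and 37.5%, against 64.5% of all genes tested. These groupings were made after the values were seen, and the difference between them was not tested.

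Complex II, succinate dehydrogenase, is the one enzyme shared by the chain and the citric acid cycle. Of its 4 genes 1 was higher, 0 were lower and 3 did not pass (25% called, against 64.5% of all genes tested). The median was 0.06. Sdha, the flavin subunit that oxidizes succinate, gave 0.26, 0.36 and 0.21 (mean 0.28 ± 0.08, adjusted p 0.0348) and lay above 0 on every array. Sdhb, the iron-sulphur subunit, gave 0.22, 0.51 and 0.00 (mean 0.24 ± 0.26, adjusted p 0.106). The membrane anchor Sdhc gave -0.12, -0.04 and -0.22 (mean -0.13 ± 0.09), and a second Sdhc probe had a mean of 0.08. The other anchor, Sdhd, gave -0.28, -0.35 and 0.05 (mean -0.19 ± 0.21), with replicate 3 on the other side of 0.

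Complex III, cytochrome bc1, had 3 of 6 genes higher, 0 lower and 3 that did not pass, with a median of 0.15. That is 50% called, against 64.5% of all genes tested, 31.5% higher and 33.0% lower. Cyc1, the cytochrome c1 that hands electrons to cytochrome c, gave 0.86, 1.05 and 0.70 on the 3 arrays (mean 0.87 ± 0.17, 1.83-fold, adjusted p 0.000124). Uqcrc1, a core subunit related to mitochondrial processing peptidase, gave 0.49, 0.66 and 0.83 (mean 0.66 ± 0.17, adjusted p 0.00065). Uqcrq, a small subunit near cytochrome b, gave 0.23, 0.47 and 0.47 (mean 0.39 ± 0.14, adjusted p 0.00938). The lowest array value of Cyc1 was still above the mean of Uqcrc1. Uqcrc2, the partner of Uqcrc1 in the core, did not pass and gave -0.05, 0.06 and -0.31. Uqcrfs1, the Rieske iron-sulphur protein, gave -0.26, 0.15 and -0.30, and Uqcrb, a small matrix-side subunit, gave -0.05, -0.02 and -0.22. The 3 genes that did not pass had means from -0.14 to -0.10.

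Cycs, which encodes somatic cytochrome c, was the highest of the 44 genes. It gave 1.14, 1.34 and 0.93 on replicates 1, 2 and 3 (mean 1.14 ± 0.21, 2.20-fold, 95% interval 0.88 to 1.39, adjusted p 3.32e-05). Cycs lay above 0 on every array, and on 2 of the 3 it was more than 2-fold higher. Its second tested probe had a mean of 1.35, and another probe was not well above background and was not tested. Cycs and its electron donor Cyc1 had means of 1.14 and 0.87. On each array Cycs lay above Cyc1, which gave 0.86, 1.05 and 0.70, and the difference was not tested.

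Complex IV, cytochrome c oxidase, had 1 gene higher, 1 lower and 5 that did not pass among 7, with a median of 0.17. That is 28.6% called, against 64.5% of all genes tested. Cox7c, a small membrane subunit, gave 0.59, 0.62 and 0.63 (mean 0.62 ± 0.02, adjusted p 0.000525), the narrowest spread of the called genes. Its other probes disagreed in size though not in sign: the brightest of its 3 probes gave 0.62, and the others gave 1.53 and 0.28. The probe at 0.28 was dim, with a mean log2 signal of both dyes of 6.67, against 14.35 and 11.37 for the probes at 0.62 and 1.53. Cox6b1, the subunit that joins the dimer on the intermembrane side, gave -0.53, -0.66 and 0.07 (mean -0.37 ± 0.39, adjusted p 0.0473). It passed as lower although replicate 3 was above 0 after loess. Under median centring Cox6b1 gave -0.17, -0.19 and -0.23 and did not pass. The 5 that did not pass were Cox4i1 (0.12, -0.11 and 0.31), Cox5a (0.11, 0.36 and 0.05), Cox5b (0.16, 0.37 and 0.09), Cox6c (-0.19, -0.09 and 0.45) and Cox7b (0.24, 0.37 and -0.02). Cox4i1, the regulatory subunit that binds ATP, and Cox5a and Cox5b, which sit on the matrix side, had means of 0.11, 0.17 and 0.21. The SD over arrays was larger than the mean for Cox4i1 and close to it for Cox5a.

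Complex V, ATP synthase, had 4 genes higher, 2 lower and 12 that did not pass among 18 (33.3% called), with a median of 0.04. Names are those in use when the array was designed or in the reference table. Atp5h, the d subunit of the peripheral stalk, was highest at 0.72, 0.87 and 0.62 (mean 0.74 ± 0.13, adjusted p 0.000257). The catalytic β subunit Atp5b gave 0.30, 0.58 and 0.22 (mean 0.36 ± 0.19), the α subunit Atp5a1 gave 0.22, 0.49 and 0.27 (mean 0.33 ± 0.15), and Atp5g1, a gene for the c ring, gave 0.19, 0.32 and 0.32 (mean 0.28 ± 0.07). All 4 lay above 0 on every array. Atp5e, the ε subunit of the central stalk, was lowest at -0.52, -0.44 and -0.34 (mean -0.43 ± 0.09, adjusted p 0.00453). Atpif1, the inhibitor that stops the enzyme from hydrolysing ATP, gave -0.26, -0.41 and -0.28 (mean -0.32 ± 0.08, adjusted p 0.0204). Its probe was saturated on 1 array in the Hopx-/- channel and on 1 array, perhaps another, in the Hopx+/- channel. The ratio is uncertain where this occurred. The next lowest, Atp5g2, another c ring gene, gave -0.56, -0.67 and 0.29 and did not pass, with replicate 3 on the other side of 0. That probe was saturated in the Hopx-/- channel on 1 array, and a dimmer, unsaturated Atp5g2 probe gave -0.44, -0.47 and 0.16. Atp5d, the δ subunit, gave -0.30, -0.13 and -0.07. The others that did not pass were Atp5c1, Atp5g3, Atp5j, Atp5j2, Atp5k, Atp5l, Atp5md, Atp5mpl, Atp5o and Atp5pb. The 12 that did not pass had means from -0.31 to 0.28.

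**Figure D2:**
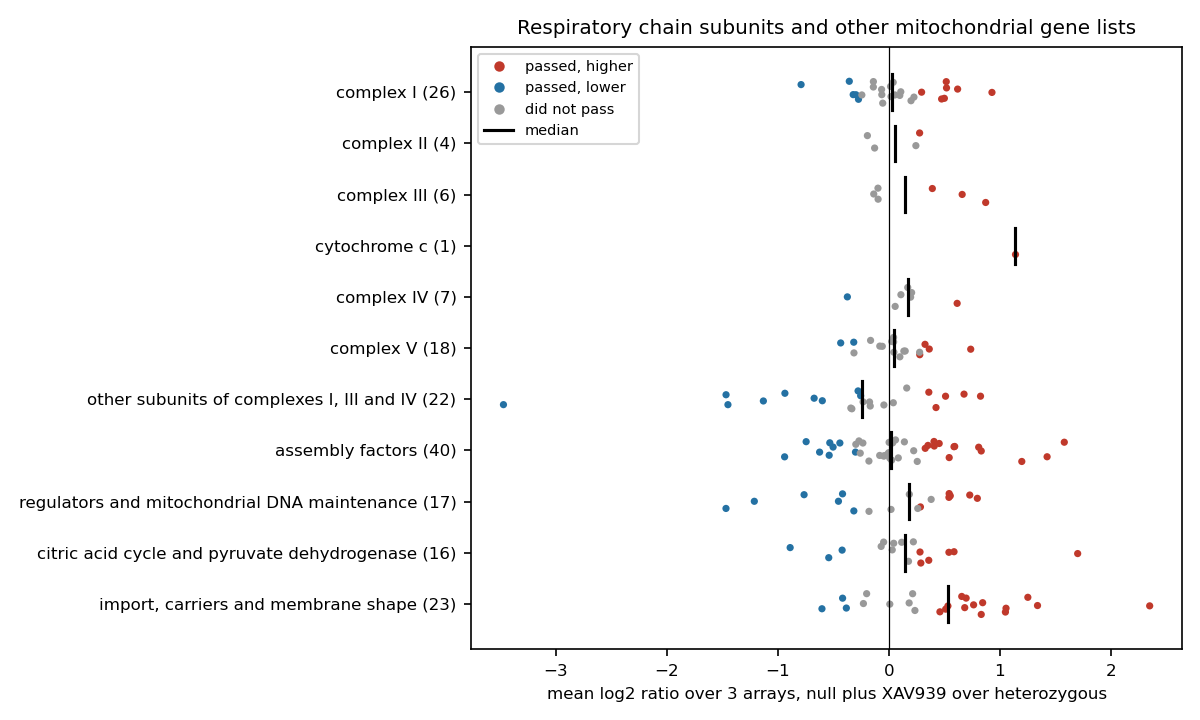
Mean log2 ratio over 3 arrays of each tested gene (points) in complexes I to V, cytochrome c and the other mitochondrial lists, with the number of genes in brackets and the list median as a black bar. Points of complexes I to V lie within about 1 log2 unit of 0, with medians from 0.03 to 0.17, while the list of other subunits reaches -3.47 and the import list reaches 2.35.

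The probes for one gene agreed to varying degrees. Of the 9 genes with several probes, Cox7c had the widest gap between its highest and lowest tested probe, 1.25. The lower end of that gap was its dim probe. For the other 8 the gap ranged from 0.07 to 0.34, and in 2 of them, Ndufb6 and Sdhc, the probes lay on either side of 0. The gap of Ndufb5, 0.31, was about the size of the mean of its brightest probe, -0.32. Several respiratory genes, Cycs and Cox7c among them, have processed pseudogenes in the mouse genome, and cross-hybridization was not tested.

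The choice between loess and median centring moved every one of these genes. Under median centring, which subtracts 1 constant per array, all 44 means were higher than under loess, by 0.18 to 0.36 (median 0.32), while the median of all genes tested moved from -0.01 to 0.10. The median of the 44 genes rose from 0.08 to 0.36 with 40 means above 0 in place of 27, and 13 genes changed sign. Under centring 11 genes were higher and 0 were lower (limma; 14 and 1 at an unadjusted p under 0.05), where 34.4% of all genes were called, 20.6% higher and 13.7% lower. All 11 were also higher under loess, and no gene was lower under both. The split of calls over all genes moved from 48.9% higher under loess to 60.0% higher under centring. Of the 6 genes called lower under loess, Ndufa3 (0.07) and Ndufa7 (0.06) turned positive under centring. Ndufb5 (-0.011 ± 0.454) and Ndufb8 (-0.0084 ± 0.544) were within their spread of 0, Cox6b1 stood at -0.20 and Ndufa6 at -0.54, and none of the 6 passed. The median of complex I was 0.34 under centring and those of complexes II to V were 0.37, 0.47, 0.52 and 0.38. Of the 18 complex V genes 1, Atp5h, was higher and 0 were lower under centring, and Atpif1 turned positive (0.05). The order of the genes hardly changed, with a rank correlation of 0.995 between the 2 settings over the 44 genes of the same arrays, given as a description. The spread over arrays was wider under centring, with a median SD of 0.48 against 0.15.

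**Figure D3:**
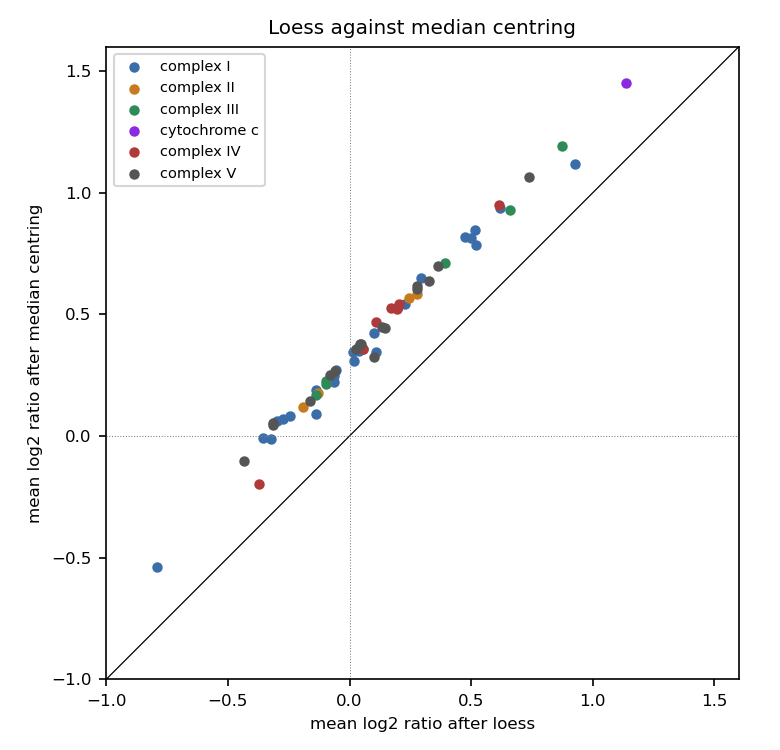
Mean log2 ratio of each listed gene of complexes I to IV, cytochrome c and complex V after loess (x axis) and after median centring (y axis), coloured by complex, with the line of equality. All points lie above the line, by 0.18 to 0.36 for the 44 listed genes.

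The genes are bright, and the Cy5-over-Cy3 ratio changed with brightness. Within an array each dye goes with 1 RNA, and the part of dye and of RNA in this change was not tested. Their median brightness, the mean log2 signal of both dyes, lay at percentile 94.0 of all genes tested. Set against median centring, loess lowered the Cy5-over-Cy3 ratio of the 44 genes by a median of 0.48, 0.67 and 0.20 on replicates 1, 2 and 3. The ratio of all genes tested was lowered by 0.30, 0.40 and 0.27. The ratios before loess given here are median-centred, so the constant of each array was already removed. Their median over all tested probes at a brightness of 14 to 15 was 0.62, 0.81 and 0.20 on the 3 arrays. At 8 to 9 it was 0.22, 0.25 and 0.35. After loess the medians at 14 to 15 were 0.12, 0.12 and 0.01, and at 15 to 16 they were -0.13, -0.12 and 0.07. The remainder on replicates 1 and 2 is of the size of the complex medians (0.03 to 0.17), and 12 of the 44 genes had a mean brightness of 14 to 15 and 4 of 15 to 16. At 13 to 14, where 18 of the genes lay, the medians after loess were 0.04, 0.05 and -0.02. On replicate 3, where the Hopx-/- RNA is taken to be in Cy3, the correction thus had the other sign for the ratio. With dye as a term in the fit, which weighs both orientations equally and was added after seeing the data, 14 of the 44 genes were higher and 7 lower, where 75.1% of all genes were called, 36.2% higher and 38.9% lower.

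**Figure D4:**
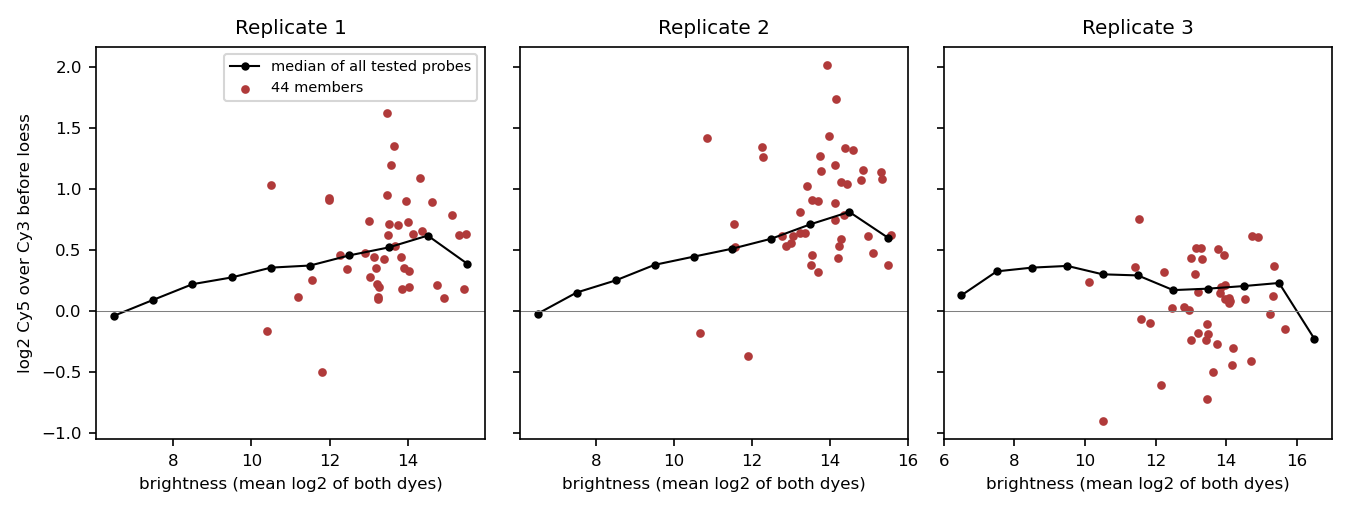
Log2 Cy5 over Cy3 after median centring and before loess, against brightness (mean log2 signal of both dyes), 1 panel per array. The line joins medians of all tested probes in bins of brightness, and the points are the 44 listed genes. On replicates 1 and 2 the median rises with brightness up to 0.62 and 0.81 at 14 to 15, while on replicate 3 it is 0.20 there.

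Of the 19 called genes, 8 passed with the same sign under all 14 alternatives that kept replicate 3 turned (slide 2 alone and leaving out replicate 1 use the same arrays), all of them higher: Ndufa5, Ndufs1, Ndufs8, Ndufv1, Uqcrc1, Cyc1, Cycs and Cox7c. Across those alternatives the value of Cycs ranged from 1.01 to 1.45 and that of Cox7c from 0.61 to 0.95. None of the 6 lower genes did so. Ndufa6 lost its call only under median centring (-0.54, adjusted p 0.0707), and the call of Ndufa3 was lost under 12 of the 14. Ndufa10 and Uqcrq lost theirs without replicate 2, and Ndufb7 with the authors' processed values. Sdha, Ndufs6, Ndufa7, Ndufb5, Ndufb8 and Cox6b1 lost theirs without replicate 1 and also without replicate 2. Without replicate 3 Cox6b1 stood at -0.59. Leaving out replicate 1 or replicate 2 left 1 of the 44 genes lower in place of 6, and leaving out replicate 3 gave 9.

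The other lists of the pathway reached farther from 0. Among 22 tested other subunits of complexes I, III and IV, 5 were higher and 9 lower with a median of -0.24, and the 63.6% called was about the share over all genes tested (64.5%). The lowest were Cox6a2 (-3.73, -3.73 and -2.96; mean -3.47 ± 0.45, adjusted p 4.80e-07) and Cox7a1 (-1.58, -1.73 and -1.09; mean -1.47 ± 0.33, adjusted p 2.07e-05), both complex IV isoforms of heart and skeletal muscle. Their counterparts in other tissues, looked up after these values were seen, gave 0.43 ± 0.14 for Cox7a2, which was higher, and -0.69, -0.70 and 0.39 for Cox6a1, which did not pass. Cox6a1 was saturated in the Hopx-/- channel on 2 of the 3 arrays, so its ratio is uncertain there and is not set against that of Cox6a2. The 15 cardiomyocyte markers fell on the same arrays by a median of 1.75, and their part in the values of Cox6a2 and Cox7a1 was not tested. Cox4i2 (-1.45 ± 0.29) was almost level with Cox7a1, and Cox8b (-1.13 ± 0.29) and Cox6b2 (-0.94 ± 0.15) followed. These also passed as lower, so the low end of the list was not made up of Cox6a2 and Cox7a1 alone. Cox8b was not well above background in Hopx-/- plus XAV939. The highest of the list were the accessory subunit Ndufa12 (0.83 ± 0.09) and the acyl carrier protein Ndufab1 (0.68 ± 0.31).

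Of 40 tested assembly factors, which build the complexes and insert their cofactors, 13 were higher and 8 lower (52.5% called, against 64.5% of all genes tested), with a median of 0.02. The complex I factors Ndufaf2 (1.58 ± 0.18) and Acad9 (1.43 ± 0.11) were highest, and the complex IV factors Cox14 (-0.94 ± 0.21) and Surf1 (-0.75 ± 0.13) were lowest; all 4 passed. Of 16 genes of the citric acid cycle and pyruvate dehydrogenase, which supply NADH and succinate, 6 were higher and 3 lower (56.2% called), with a median of 0.15. Pdhb, a subunit of pyruvate dehydrogenase, gave 1.70 ± 0.12 and Idh3a 0.59 ± 0.28, while the isocitrate dehydrogenase genes Idh2 and Idh3b gave -0.89 ± 0.25 and -0.54 ± 0.24. Of 23 genes for protein import, carriers and membrane shape, 14 were higher and 3 lower (73.9% called), with a median of 0.53. The outer membrane import receptor Tomm22 gave 2.35 ± 0.19 and the ADP/ATP carrier Slc25a5 gave 1.34 ± 0.20, while the fusion genes Mfn1 and Opa1 gave -0.60 ± 0.25 and -0.42 ± 0.02. Under median centring 4 of the other subunits were higher and 4 lower and their median turned positive (0.10), while 8 assembly factors were higher and 1 lower, 4 citric acid cycle genes were higher and 0 lower, and 14 import genes were higher and 0 lower. The difference of these lists from the listed subunits was not tested. None of the 13 mitochondrially encoded subunits was matched to a probe by accession, and they are not analysed here.

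Of 17 tested regulators of the pathway and of mitochondrial DNA, 6 were higher, 6 lower and 5 did not pass (median 0.18). The share called, 70.6%, was near the 64.5% of all genes tested, and so were the shares in each direction. Higher were Pprc1, a PGC-1-related coactivator (1.04, 0.28 and 1.07; mean 0.80 ± 0.45), the mitochondrial DNA helicase Twnk (0.73 ± 0.37), Tfam, which packages and transcribes mitochondrial DNA (0.47, 0.60 and 0.59; mean 0.55 ± 0.07), Nrf1 (0.63, 0.60 and 0.40; mean 0.54 ± 0.12), the mitochondrial RNA polymerase Polrmt (0.54 ± 0.05) and the GABP subunit Gabpb1 (0.28 ± 0.18). Lower were the mitochondrial DNA polymerase Polg (-1.52, -1.41 and -1.47; mean -1.47 ± 0.05), its accessory subunit Polg2 (-0.76 ± 0.09), the oestrogen-related receptors Esrrg (-1.21 ± 0.26) and Esrra (-0.42 ± 0.16), Yy1 (-0.45 ± 0.17) and the corepressor Nrip1 (-0.32 ± 0.15). Gabpa (0.38 ± 0.41), Ssbp1 (0.26 ± 0.16), Tfb2m (0.18 ± 0.18), Tfb1m (0.02 ± 0.30) and the coactivator Ppargc1a (-0.18 ± 0.08) did not pass. Under median centring 5 regulators were higher and 2 lower, Polg and Esrrg. Ppargc1b was not tested, as its probe did not meet the filter on dim probes.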

How the data were processed

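RNA of day 8 embryoid bodies was compared on 3 two-colour Agilent arrays, 1 comparison with 3 replicates. The authors extracted the signals with Agilent Feature Extraction, which is version 11.5.1.1 per the file headers, whereas the submitters' processing notes name 8.5.1.1. Signals and local backgrounds are deposited as median pixel intensity per channel, and Feature Extraction's own ratio (Cy5 over Cy3) is deposited on a log10 scale, per the file headers. The authors' processed values behave as log2 ratios, with normalization not given in the sources used here. Marks for spots that are outliers, saturated or well above background are 0 or 1 per the file headers.

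From these, each local background marked as an outlier was set to the median of the unmarked ones in its channel, normexp with an offset of 50 corrected the signals, and loess normalized each array (limma 3.58.1, R 4.3.3), and spots of a probe were averaged. Probes entered the test when 1 or both channels of every array were well above background, and the brightest such probe stood for a gene, giving 14705 genes. Limma's moderated test set the mean log2 ratio against 0, with Benjamini-Hochberg adjustment over all genes and a threshold of 0.05. On simulated data with independent noise this test recovered 73.2% of 2-fold and 94% of 4-fold changes. Changes under 2-fold, the size of most differences reported here, were not simulated. The p-values of the test reflect array-to-array spread, which may be technical. Arrays 2 and 3 shared a slide. Turning the ratio of replicate 3 changes the dye assignment that its label states. Errors are SD over 3 arrays.

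The members, the other lists and the motifs were chosen with earlier results of these data known. All genes of complexes II, III and IV and cytochrome c were named. Of complexes I and V, the 4 highest and 4 lowest were given by array, with every gene that did not pass. Of each other list the 2 highest and 2 lowest were named, and regulators in full. Genes named beyond this were chosen after their values were seen. Alternatives covered normalization, the source of the ratio, background, the filter, the probe of a gene, slide, dye, the sign of replicate 3 and each replicate left out. Symbols were matched through RefSeq accessions.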

Additional observations from a re-analysis of the deposited data

How the results depend on the processing

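Under median centring the medians of complexes I to V were 0.34, 0.37, 0.47, 0.52 and 0.38, 0 of the 44 genes were lower (limma; 1 at an unadjusted p under 0.05), and 3034 of all genes were higher and 2019 lower. Atpif1 (0.047), Ndufa7 (0.061) and Ndufa3 (0.071) turned positive there. The number of lower genes among the 44 was 3 with the Feature Extraction log ratio, 2 with the authors' processed values, 2 with marked local backgrounds kept and 1 with slide 2 alone, which is the same as leaving out replicate 1. Keeping marked backgrounds also left 2667 genes higher and 2258 lower. With replicate 3 used as labelled, limma called 0 of the 44 genes and 0 of all genes in either direction (0 and 0 of the 44, and 13 higher and 27 lower of all, at an unadjusted p under 0.05), and Ndufa3 stood at 0.014. The cause of these shifts was not tested.

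Leaving out 1 replicate at a time gave 9 to 17 genes of the 44 higher and 1 to 9 lower, and 3500 to 5278 of all genes higher and 3709 to 5340 lower. The medians ranged from -0.01 to 0.09 for complex I, 0.00 to 0.12 for complex II, 0.11 to 0.20 for complex III, 0.12 to 0.23 for complex IV and 0.00 to 0.11 for complex V. Atp5o ranged from -0.21, where it passed without replicate 3, to 0.26 without replicate 1. Over 15 alternatives, 530 of the values of the 44 genes kept their direction and side of the threshold, 75 lost the call, 13 gained it, 39 changed sign without a call in either setting and 3 changed sign with one. No paired analysis was possible because none is left to add: the ratio within each array is already a pair, and its test against 0 is the paired test. The planned slide block could not be estimated from 3 arrays, so slide as a fixed effect was added after seeing the data. Dim probes set no limit here, as all 44 genes were well above background.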
